A study of Mus musculus with 8 samples.

Results

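The angiopoietin and Tie receptor system was examined in the CD31-positive kidney cell fraction of Crim1 mutant and wildtype mice. Its 5 genes were taken by symbol: the receptors Tie1 and Tek (also called Tie2), their phosphatase Ptprb (VE-PTP) and the ligands Angpt1 and Angpt2. They had 8 of the 45281 probes of the array, and 6 of these 8 were among the 23841 probes tested, so that each of the 5 genes had at least 1 tested probe among 12476 named genes with one. Total RNA of CD31-positive cells, collected from adult mouse kidneys by magnetic sorting, was hybridised to 1-colour Illumina BeadChips, 1 array per sample. The groups were mutant males (numbers 2 and 4), mutant females (1 and 3), wildtype males (2 and 4) and wildtype females (1 and 3), so that 4 mutant arrays stood against 4 wildtype arrays.

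Mutant mice carried the gene-trap allele KST264 on both copies of Crim1 in all their cells, and the other mice were wildtype. All mice had the C57B6/CD1 background, and no treatment is named for any group. Crim1 is a cell-surface protein that binds growth factors. Whether the arrays come from different animals is not said in the labels, and p-values therefore cover only the spread among these samples, part of which may be technical.

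Tek is the receptor tyrosine kinase that binds angiopoietins on blood and lymphatic endothelium. Angpt1, made by perivascular and mesenchymal cells and in the kidney also by podocytes, activates Tek and stabilises vessels, whereas Angpt2, released by endothelial cells, can oppose Angpt1 depending on context. Tie1 binds no angiopoietin with high affinity by itself and modulates Tek within a shared complex, and Ptprb removes phosphate from Tek. In the kidney the pathway is known for its role in glomerular capillaries and the vasa recta.

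The Tie receptor genes are expressed mainly in endothelium, and ETS factors, whose core site is GGAA, act on their promoters. The sequence before the Tie1 start site is shown because Tie1 had the widest genotype difference of the 5 genes. It comes from the RefSeq promoter table (GRCm38.p6, chr4:118489850-118490099, minus strand, 250 bases ending at the base before the start), written 5′ to 3′ with each GGAA or its reverse complement TTCC in capitals.

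Tie1: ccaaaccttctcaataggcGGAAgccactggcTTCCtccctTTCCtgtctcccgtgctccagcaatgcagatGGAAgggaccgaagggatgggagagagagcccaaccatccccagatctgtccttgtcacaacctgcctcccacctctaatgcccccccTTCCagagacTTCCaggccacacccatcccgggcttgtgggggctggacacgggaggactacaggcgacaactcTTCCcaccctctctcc

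On either strand the Tie1 window held 7 copies of this core, and 3.82% of the 32851 windows of the same length in the table held at least as many. One copy or more was present in 93.4% of these windows. The Tek window held 2 copies, a number reached by 76.8% of windows. The longer motif GGAAGT, also counted, had 1 copy in the Tie1 window, a number reached by 19.7% of windows. It was absent from the Tek window. A further motif, AGATAA, was absent from both windows and present in 9.99% of all windows. The table matched 2 of the 5 genes, Tie1 and Tek. A match of letters is a description of the sequence and not evidence of binding.

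Array quality and the genotype labels were checked first. Median raw signals lay between 83.2 and 98.5, and 45.1% to 48.7% of probes were detected (detection p under 0.05). By its brightest probe, Crim1 had a mean log2 intensity of 5.30 ± 0.61 in mutants and 7.63 ± 0.46 in wildtype arrays (SD, n = 4 each), a fitted difference of -2.33 (adjusted p = 0.0370, limma). It was detected on both mutant females, neither mutant male and all 4 wildtype arrays, so the difference includes arrays on which the mutant level was not above background. The position of these probes with respect to the inserted trap is unknown here. Of 24 endothelial marker genes besides the Tie system, 22 were tested, and Kdr and Ecscr were not. Markers of tubule were bright as well. The 10 proximal tubule markers summed to 122408 to 152301 intensity units in mutants and to 128916 to 149261 in wildtype arrays. The 7 loop and distal tubule markers summed to 115217 to 141674 in mutants and to 124866 to 144452 in wildtype arrays.

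The endothelial markers differed between the groups, which touches every receptor result below. Their summed intensity was 58572 (number 2) and 106865 (number 4) in mutant males, against 137562 and 174099 in wildtype males. In females it was 63672 and 73962 in mutants, against 71871 and 81214 in wildtype arrays. Markers of other cells differed too, with none past the threshold (limma). The 4 tested of 7 fibroblast markers all lay higher in mutants (median 1.07, all 4 with an unadjusted p under 0.05) and summed to 1268 to 2218 in mutants, against 786 to 1260 in wildtype arrays; Lum, Col1a1 and Col3a1 were not tested. The 9 tested of 10 tubule injury markers also lay higher (median 0.82, 7 with an unadjusted p under 0.05), with sums of 3783 to 6368 in mutants and 2123 to 2491 in wildtype arrays. Their part in the results on the Tie system was not tested. In bulk RNA, fewer endothelial cells and less RNA per endothelial cell cannot be told apart.

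The first comparison asked whether the receptors and ligands differed between mutants and wildtype. Over both sexes, Tie1, Tek, Ptprb and Angpt2 lay lower in mutants by 1.34- to 1.82-fold, Tie1 the most, and Angpt1 differed by 1.13-fold in the other direction. None of the 6 tested probes passed an adjusted p of 0.05 (limma, Benjamini-Hochberg over all probes). At an unadjusted p under 0.05 there were 2, those of Tie1 and the brighter Angpt2 probe. Of all probes, 0.0378% passed the adjusted threshold and 8.78% the unadjusted one, and 47.5% lay below 0, as 4 of the 5 genes did. The adjusted threshold was passed by 9 probes, and by 0 with the sample number as a replicate block. The median difference of the 5 genes was -0.46 on the log2 scale, against 0.02 over all 12476 genes.

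Tie1, the orphan receptor of the pair, was measured by 1 probe that was detected on all 8 arrays. Its log2 intensity was 8.03 (number 2) and 8.58 (number 4) in mutant males and 8.01 (number 1) and 8.31 (number 3) in mutant females, against 9.59 and 9.73 in wildtype males and 8.47 and 8.60 in wildtype females. Within each sex both mutant arrays lay below both wildtype arrays, a pattern seen for 3.75% of all tested probes. Across sexes the genotypes overlapped, since mutant male 4 lay between the wildtype females. In none of the 6 probes did all mutant arrays lie below all wildtype arrays, as 1.37% of probes did. The 4 mutant arrays averaged 8.23 ± 0.27 and the 4 wildtype arrays 9.10 ± 0.65 (SD). The difference was -0.86 (SE 0.16, 95% interval -1.23 to -0.50), a 1.82-fold lower level with an unadjusted p of 0.000825 and an adjusted p of 0.330 (limma). It had the 56th smallest p of the 23841 probes. Leaving out single arrays gave -1.004 to -0.73, with no adjusted p under 0.05.

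Tek, the angiopoietin receptor, varied more between arrays of 1 group. Its log2 intensity was 11.11 and 12.42 in mutant males and 11.14 and 11.81 in mutant females, against 12.44 and 13.00 in wildtype males and 11.62 and 11.98 in wildtype females. Mutant males lay below wildtype males, as for 18.2% of probes, but mutant male 4 nearly reached wildtype male 2, and mutant female 3 lay between the wildtype females. The genotype difference was -0.64 (SE 0.32, interval -1.39 to 0.11, adjusted p = 0.668, limma). It was -0.31 without mutant male 2 and -0.97 without mutant male 4.

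Ptprb, the endothelial phosphatase of Tek and of VE-cadherin, followed the arrays in much the same way as Tek. It stood at 10.79 and 12.03 in mutant males and 10.99 and 11.22 in mutant females, against 12.03 and 12.26 in wildtype males and 11.30 and 11.26 in wildtype females. Both mutant arrays lay below both wildtype arrays in each sex, as for 3.75% of all tested probes, and narrowly so for mutant male 4 and mutant female 3. The difference was -0.46 (SE 0.26, interval -1.07 to 0.15, adjusted p = 0.718, limma). Without mutant male 2 it was -0.15, and without mutant male 4 it was -0.77.

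**Figure D1:**
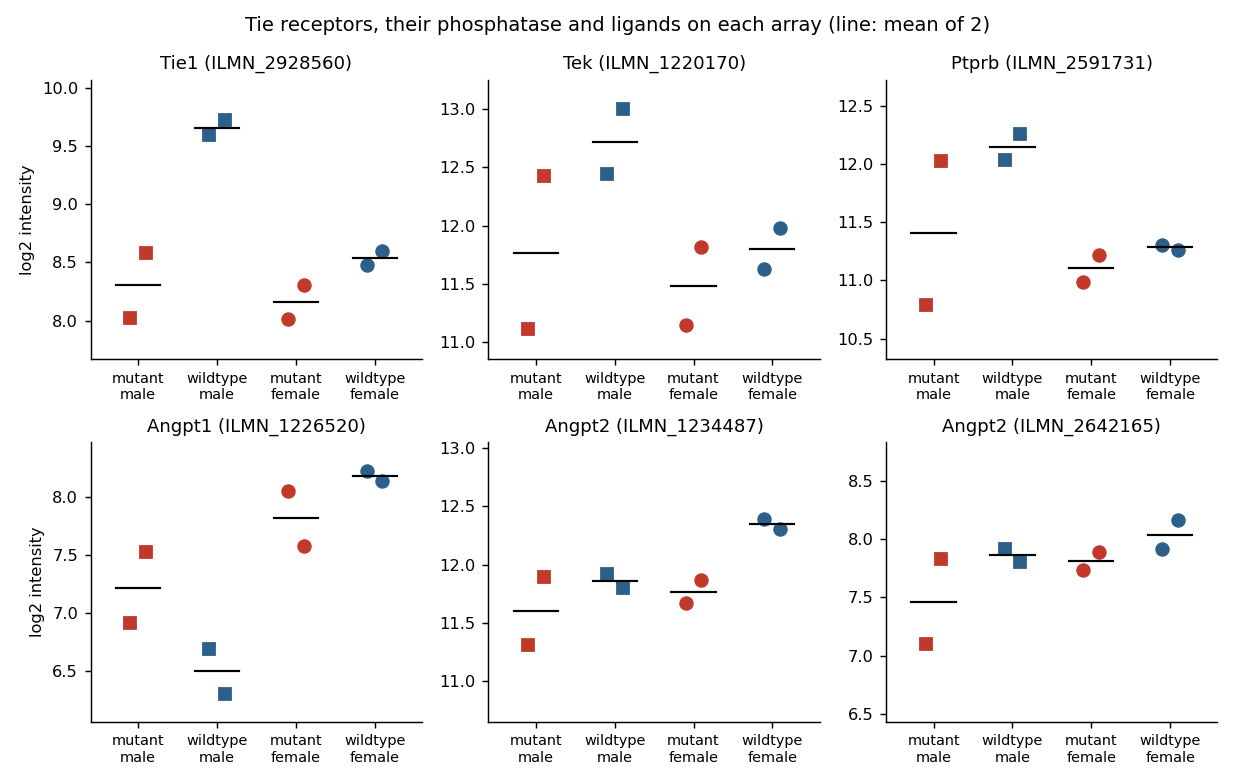
Normalized log2 intensity of the 6 tested probes (vertical axes, each spanning the same range) on each array, by group; points are arrays, squares male and circles female, red mutant and blue wildtype, and lines are means of 2. Tie1 stands at 9.59 and 9.73 in wildtype males and at 8.60 or lower on the other arrays, whereas Angpt1 is lower in all males than in all females.

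Angpt2, the context-dependent ligand that endothelial cells release, had 2 tested probes. By the brighter one it stood at 11.31 and 11.89 in mutant males and 11.67 and 11.87 in mutant females, against 11.92 and 11.80 in wildtype males and 12.39 and 12.30 in wildtype females. Mutant females lay below wildtype females, as for 16.7% of probes, and the male groups overlapped. The difference was -0.42 (SE 0.15, interval -0.78 to -0.06, unadjusted p = 0.0283, adjusted p = 0.495, limma). The dimmer probe gave -0.31 (SE 0.18, adjusted p = 0.716, limma), with mutant male 2 at 7.10 and the other arrays between 7.73 and 8.16. Leaving out single arrays moved the brighter probe's difference between -0.56 (without mutant male 4) and -0.27 (without mutant male 2).

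Angpt1, the activating ligand, was dim. Of its 3 probes, 1 was detected on all 8 arrays and the other 2 on none, with raw signals of 59.1 to 95.9. The detected probe stood at 6.92 and 7.52 in mutant males and 8.05 and 7.58 in mutant females, against 6.69 and 6.31 in wildtype males and 8.22 and 8.13 in wildtype females. Mutant males lay above wildtype males and mutant females below wildtype females, a pattern of 3.38% of probes. Over both sexes the difference was 0.18 (SE 0.19, interval -0.27 to 0.62, adjusted p = 0.893, limma).

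The genotype difference was then read within each sex, with 2 arrays against 2. Differences of Tie1, Tek and Ptprb were wider in males, and that of the brighter Angpt2 probe was wider in females. In males Tie1 differed by -1.35 (SE 0.22, adjusted p = 0.192, limma), a 2.56-fold lower level in mutants, Tek by -0.95 (SE 0.45) and Ptprb by -0.74 (SE 0.37). In females Tie1 differed by -0.38 (SE 0.22), Tek by -0.32 (SE 0.45) and Ptprb by -0.18 (SE 0.37). No member passed in either sex, where 0.00419% of all probes passed in males and 0.0% in females (11.2% and 4.26% at an unadjusted p under 0.05).

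By its brighter probe, Angpt2 differed by -0.26 (SE 0.21) in males and by -0.58 (SE 0.21) in females. The latter was the widest female difference of the 5 genes. The dimmer Angpt2 probe had the reverse order, with -0.40 (SE 0.25) in males and -0.23 (SE 0.25) in females. Angpt1 differed by 0.72 (SE 0.27) in males and by -0.36 (SE 0.27) in females. The difference between the sexes was itself tested as an interaction, male effect minus female effect, in which 0.0% of all probes passed and 6.97% had an unadjusted p under 0.05. It was -0.98 (SE 0.31, unadjusted p = 0.0161, adjusted p = 0.656, limma) for Tie1 and 1.08 (SE 0.38, unadjusted p = 0.0236, adjusted p = 0.673, limma) for Angpt1. It was -0.63 (SE 0.64) for Tek and -0.56 (SE 0.52) for Ptprb. For Angpt2 it was 0.32 (SE 0.30) by the brighter probe and -0.17 (SE 0.35) by the dimmer one. None of these had an unadjusted p under 0.05.

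**Figure D2:**
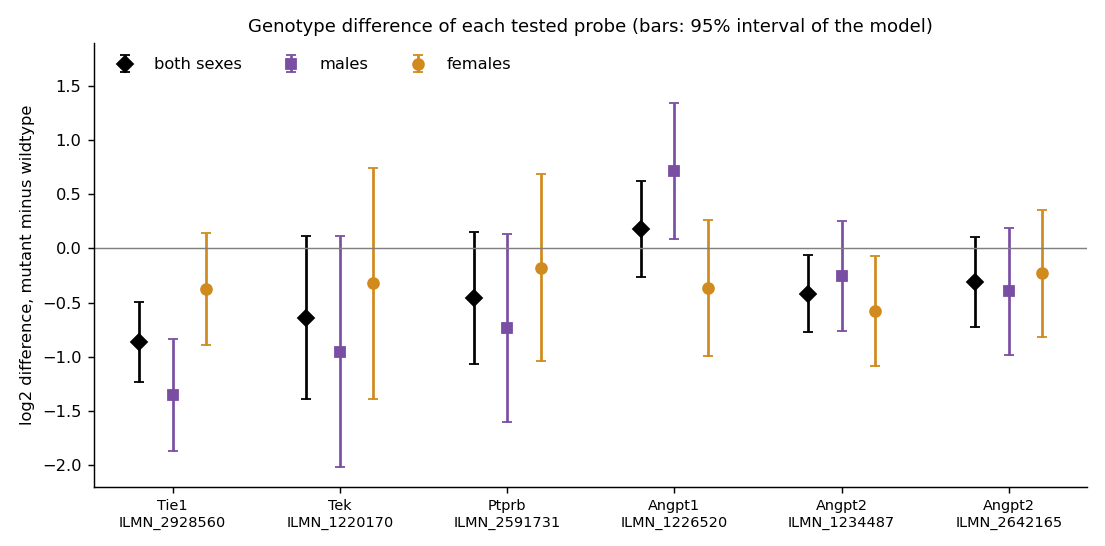
Log2 difference, mutant minus wildtype, of each tested probe over both sexes (diamonds), in males (squares) and in females (circles), with the 95% interval of the model. The Tie1 interval over both sexes runs from -1.23 to -0.50, and the Angpt1 estimates for males and females lie on opposite sides of 0.

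Since the receptors are endothelial, their differences were set beside those of the 22 other endothelial genes. Of these, 21 lay below 0 in mutants, with a median of -0.52; 0 passed (limma) and 10 had an unadjusted p under 0.05. The difference of Tie1 was wider than that of each of the 22, whose widest was -0.73 for Pecam1, the gene of CD31. Tek had 5 of them below it, Ptprb 14 and Angpt2 16. Tie1 also lay below all 22 within males, where their median was -0.95, and within females, where it was -0.11. In females this was shared by Angpt2 (brighter probe) and Angpt1, which also lay below all 22, and Tek had 1 of them below it. The dimmer Angpt2 probe, at -0.23 in females, did not lie below all 22, whose lowest female difference was -0.33. The order depended on the source of values: in the authors' processed values Tie1 differed by -0.60 and 8 of the 22 lay below it, and without mutant male 4 there was 1. Outside the 22, the 5 tested of 7 glomerular endothelial genes included Ehd3 (-1.15) and Hecw2 (-0.88), both with wider differences than Tie1. Nostrin (-0.42), Plat (-0.33) and Lpl (0.22) had narrower ones, and none of the 5 passed (limma).

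With the mean of the 22 genes as a covariate, the difference of Tie1 was -0.60 (SE 0.14, adjusted p = 0.477, limma), that of Tek 0.033 (SE 0.19) and that of Ptprb 0.069 (SE 0.17). Angpt2 stood at -0.21 (SE 0.17) and Angpt1 at 0.32 (SE 0.25) in that fit. None of the 5 passed in that fit, and the covariate itself lay lower in mutants. The adjustment was estimated within the 4 groups, where the covariate differed most between mutant male 2 (9.85) and mutant male 4 (10.77). It therefore leaned mainly on these arrays, and the fit was not repeated without single arrays.

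**Figure D3:**
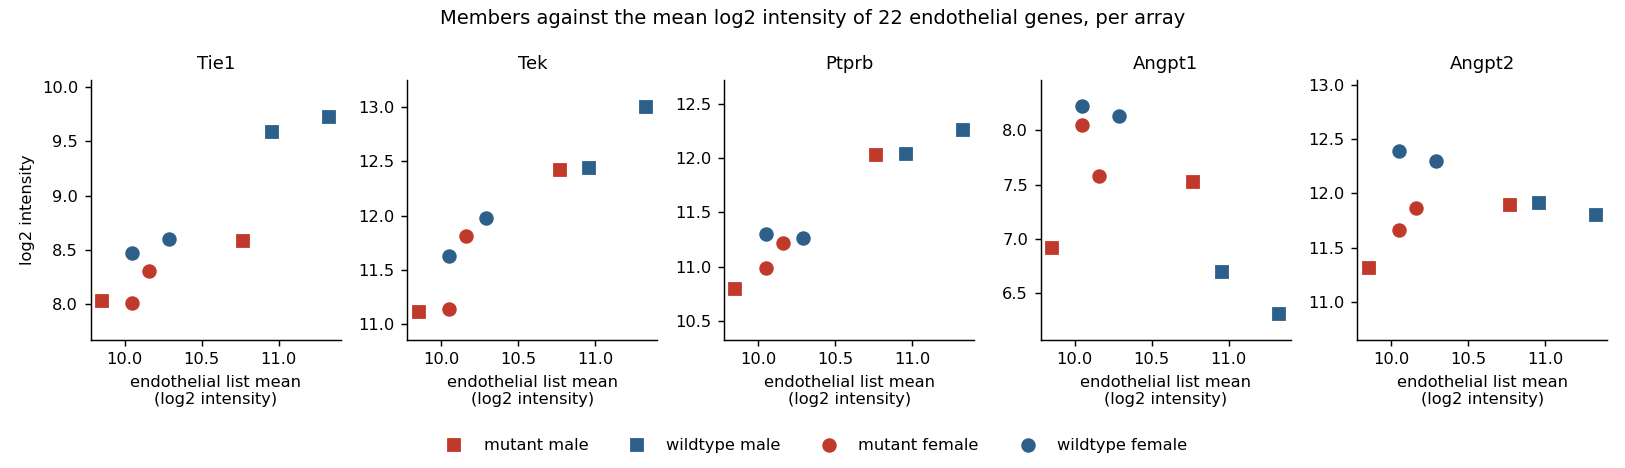
Log2 intensity of the brightest tested probe of each member (vertical axes) against the mean log2 intensity of 22 endothelial genes (horizontal axis) on the 8 arrays; red is mutant, blue wildtype, squares male and circles female. Tie1, Tek and Ptprb are highest on the arrays with the highest endothelial means, those of wildtype males, and Angpt1 is lowest there.

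**Figure D4:**
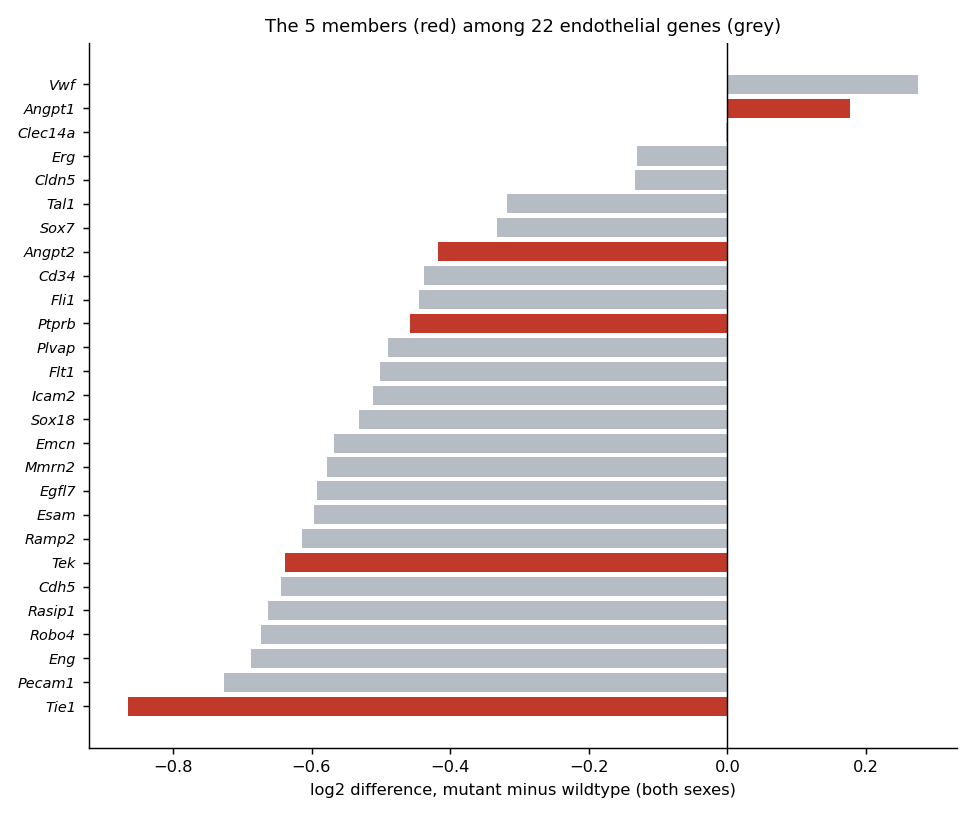
Log2 difference, mutant minus wildtype over both sexes, of the 5 members (red bars) and of 22 other endothelial genes (grey bars), from the highest at the top. Tie1 at -0.86 lies below the widest of the other genes, Pecam1 at -0.73.

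Tie1 was next compared with Tek, Ptprb and the ligands within each array, as the log2 ratio of the probes relative to its mean over the 4 wildtype arrays. Such a ratio removes what both genes share and shows unequal change, not which gene changed. An exact two-sided permutation test over all 70 splits of 4 against 4 was used, whose smallest p is 0.0286, with adjustment over 5 ratios. A ratio that reaches this smallest p alone cannot have an adjusted p under 0.05, so that it did not pass was fixed by the design.

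The ratio of Tie1 to Tek stood at 0.08 and -0.68 in mutant males and 0.03 and -0.34 in mutant females, against 0.31 and -0.11 in wildtype males and 0.01 and -0.21 in wildtype females. The genotypes overlapped, and the difference of -0.23 did not pass (exact permutation p = 0.400, adjusted p = 0.429). The ratio of Tie1 to Ptprb differed by -0.41 (exact permutation p = 0.0571, adjusted p = 0.143) and was -0.15 and -0.83 in mutant males and -0.36 and -0.29 in mutant females, against 0.17 and 0.09 in wildtype males and -0.21 and -0.05 in wildtype females. The genotypes overlapped only through mutant male 2 and wildtype female 1.

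The ratio of Tie1 to the endothelial mean was the single one of the 5 whose genotypes did not overlap. It was -0.27 and -0.63 in mutant males and -0.48 and -0.29 in mutant females, against 0.19 and -0.05 in wildtype males and -0.01 and -0.13 in wildtype females. The difference was -0.41, with an exact permutation p of 0.0286, the smallest that splits without regard to sex can give, and an adjusted p of 0.143. Over the 36 splits that keep the sexes balanced, the exact permutation p was 0.0556, the smallest these can give. In the authors' processed values it was -0.18 (adjusted p = 0.714, exact permutation). When Tie1 was set against the ligands of Tek the ratio separated wildtype males from the rest. For Angpt1 the difference was -2.07 in males and -0.01 in females (-1.04 over both, exact permutation p = 0.343), and for Angpt2 it was -1.10 in males and 0.20 in females (-0.45 over both, exact permutation p = 0.429).

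**Figure D5:**
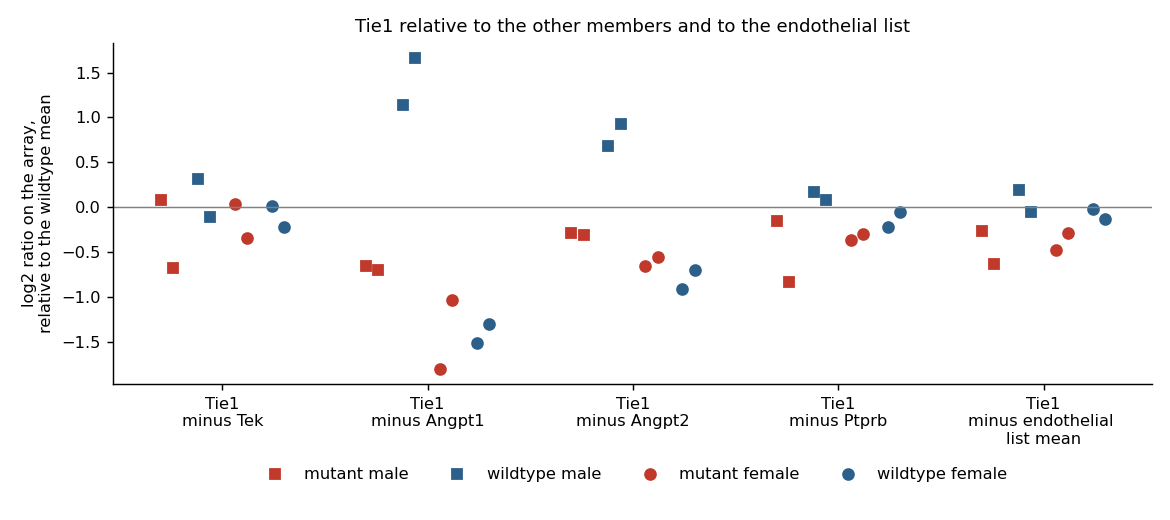
Log2 ratio of Tie1 to each other member and to the endothelial mean on each array (points, red mutant, blue wildtype, squares male, circles female), relative to the mean of the 4 wildtype arrays (line at 0). In the ratio to the endothelial mean, mutants lie at -0.27 or lower and wildtype arrays at -0.13 or higher, and in the ratios to Angpt1 and Angpt2 the wildtype males stand apart at 0.68 or higher.

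A further comparison set males against females over both genotypes. Angpt1 was lower in males and passed, whereas the receptors lay higher there without passing. Angpt1 averaged 6.86 ± 0.51 in males and 8.00 ± 0.29 in females (SD, n = 4 each). All 4 male arrays lay below all 4 female arrays, narrowly so for mutant male 4 (7.52) and mutant female 3 (7.58). The wildtype groups stood further apart, at 6.50 in males and 8.18 in females, than the mutant groups, at 7.22 and 7.82. Over both genotypes the difference was -1.14 (SE 0.19, adjusted p = 0.0296, limma), a 2.20-fold lower level in males. In this contrast 3.06% of all probes passed, 1.74% as lower in males, and 7.63% had all male arrays below all female arrays.

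This Angpt1 call was lost when any of 6 arrays was left out, namely mutant female 1 or 3, wildtype male 2 or 4, or wildtype female 1 or 3 (adjusted p = 0.0575 to 0.112, limma), with differences of -1.26 to -1.02. In the authors' processed values the difference was -0.50. Of the markers of cells that make Angpt1, 6 of 12 mural and mesangial genes lay lower in males (median 0.01) and 2 of 8 podocyte genes (median 0.11), with none past the threshold. Proximal tubule markers had a median of -0.47, with 7 of 10 lower in males. Of these 10, Slc5a12 (-1.11) and Slc5a2 (-0.77) passed as lower in males and Slc22a6 (1.23) as higher; the 3 are named because they passed. The part of these cells in the Angpt1 difference was not tested.

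Tie1 differed by 0.63 between males and females (SE 0.16, adjusted p = 0.0847, limma), Tek by 0.60 (SE 0.32) and Ptprb by 0.58 (SE 0.26), against a median of 0.61 over the 22 endothelial genes, of which 21 were higher in males. The Tie1 difference passed with quantile normalization and no background correction (0.56, adjusted p = 0.0432, limma), in the authors' values (0.46, adjusted p = 0.0390) and without mutant male 2 (0.77, adjusted p = 0.0437). Ptprb passed without mutant male 2 (0.89, adjusted p = 0.0308, limma). The wildtype arrays carried most of the difference: Tie1 averaged 8.30 in mutant males and 8.16 in mutant females, but 9.66 in wildtype males and 8.54 in wildtype females. Angpt2 lay lower in males by 0.33 on the log2 scale (adjusted p = 0.285, limma).

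The rest of the pathway was read from lists of other ligands, effectors and regulators, with 0 genes past the threshold between genotypes in each list (limma). Among 16 transcription factors known to act on Tie1, Tek or Angpt2, 13 lay below 0 in mutants with a median of -0.23, and 1 had an unadjusted p under 0.05. This was Ets2 at -0.43 (SE 0.15, adjusted p = 0.477, limma). Next came Epas1, a hypoxia-inducible factor, at -0.34 (its dimmer probe -0.15). In the sex contrast 14 of the 16 lay above 0, with a median of 0.21. The list shares Erg, Fli1 and Tal1 with the endothelial list.

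Of 25 adaptors and effectors downstream of Tek, 19 were tested, and 10 of these lay below 0 with a median of -0.02; none had an unadjusted p under 0.05 by its brightest probe. Those with the smallest p were Pik3cb, a catalytic subunit of phosphatidylinositol 3-kinase, at 0.22 (adjusted p = 0.664, limma) and Nos3, endothelial nitric oxide synthase, at -0.37 (adjusted p = 0.691). The 2 dimmer Nos3 probes gave -0.65 and -0.71, with unadjusted p of 0.0283 and 0.0102 (adjusted p = 0.495 and 0.408, limma). Of 13 genes induced by Foxo factors, which Tek signalling restrains through Akt, 12 were tested and 8 lay below 0 with a median of -0.12. An unadjusted p under 0.05 between genotypes was found for 3 (limma): Sesn3 (0.53) and Irs2 (0.44), higher in mutants, and Sesn1 (-0.37), lower. Cited2, a transcriptional coregulator, passed in the sex contrast at -0.59 (SE 0.11, adjusted p = 0.0432, limma), with its other probes at -0.62 and -0.80. It measured 12.45 and 12.26 in mutant males and 12.00 and 11.87 in wildtype males. In females it measured 12.71 and 12.86 in mutants and 12.76 and 12.63 in wildtype arrays. All male arrays lay below all female arrays, as for 7.63% of all tested probes.

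Of 12 other receptor-type tyrosine phosphatases, 10 were tested, with 4 below 0 and a median of 0.01. Those with the smallest p were Ptpru at -0.64 (adjusted p = 0.441, limma; its other probe -0.36) and Ptprm, an endothelial phosphatase, at -0.62 (adjusted p = 0.458), whose other probes gave 0.24 and -0.11. Ptpru ran in opposite directions in the sexes, at -1.67 in males and 0.39 in females. Its other probe did so too, at -1.62 and 0.91, and neither interaction passed (adjusted p = 0.594 for both probes, limma). Among 5 genes of receptor shedding, all tested, 4 lay above 0 with a median of 0.08. Mmp14, a membrane-bound protease reported to cleave Tek, stood at 0.57 (adjusted p = 0.442, limma), but its other probe at -0.42. Adam15, a membrane metalloprotease, stood at -0.33 (adjusted p = 0.485), with other probes at -0.32 and 0.08.

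Of 9 further ligands, cofactors and matrix partners, 6 were tested and 4 lay above 0, with a median of 0.32. The integrin chain Itgb3, detected on 4 of 4 mutant and 2 of 4 wildtype arrays, stood at 0.40 (adjusted p = 0.428, limma). Fibronectin (Fn1) was not well above background on any wildtype array and was detected on 3 of 4 mutant arrays. An estimate with a floor on the wildtype side put it 1.09-fold higher in mutants. The adjusted p of 0.428 (limma) belongs to the fitted log2 difference of 0.59, which uses the undetected arrays, and not to this estimate. That estimate sets the mutant mean against the higher, on each wildtype array, of the lowest detected signal and the probe's own. The mutant mean includes the undetected mutant array at its measured value, so the estimate is not a strict lower bound. Of 4 tested angiopoietin-like genes, which resemble angiopoietins but do not bind Tie receptors, 3 lay above 0. Angptl4, an inhibitor of lipoprotein lipase, stood at 0.94 (SE 0.33, adjusted p = 0.476, limma) and Angptl1 at 0.29 (SE 0.11, adjusted p = 0.500). Angptl4 measured 11.50 and 11.22 in mutant males and 9.54 and 10.68 in mutant females. In wildtype arrays it measured 10.72 and 10.05 in males and 8.72 and 9.68 in females. Males thus did not overlap between genotypes and females did. The reverse separation, mutant males below wildtype males, was seen for 18.2% of all tested probes, and the share for this direction was not counted.

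Genes with patterns most like each member over the 8 arrays were found by Pearson correlation of the brightest tested probes over 12475 other genes. The arrays share sex and genotype groups, so the values describe these arrays. The genes most like Tie1 were Stard9, Mapk12, Gimap1, Mef2c and Lmo2, with r from 0.983 to 0.991. Those most like Tek were Tnfrsf22, Dennd2c, Adgrl4, Gja1 and Fhdc1 (0.987 to 0.993), and those most like Ptprb were Arhgap23, Dennd6a, Pitpnm2, Arhgap17 and Itga9 (0.986 to 0.993). Tek and Ptprb had r = 0.959 with each other, and Tie1 had r = 0.894 with Tek and 0.881 with Ptprb. With the endothelial mean, r was 0.956 for Tek, 0.967 for Ptprb and 0.923 for Tie1.

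The ligands had other neighbours. The genes most like Angpt1 were Cdh6, Slc5a12, Krba1, Evpl and Slco2a1 (0.977 to 0.992), among them the proximal tubule transporter Slc5a12, and its r with the endothelial mean was -0.663. Those most like Angpt2 were Thap11, Elovl5, 4632427E13Rik, 4933404O12Rik and Cacnb2 (0.947 to 0.972). Its r was 0.209 with Tie1, 0.277 with Tek and 0.0874 with the endothelial mean, the weakest of the 5 members.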

How the data were processed

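The deposited table holds a raw intensity per probe and array on a linear scale, with a detection p-value beside it, per the file headers. The authors' deposited processed values, used as an alternative, are on a log2-like scale with medians of 7.46 to 7.47; the method behind them is not given here. Columns of unknown sample numbered 0.

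The neqc function of limma 3.58.1 (R 4.3.3) was applied, which estimates background from the detection p-values (normexp), adds an offset of 16, quantile normalizes and takes log2. A probe was tested if its detection p was below 0.05 in 2 or more of the 8 samples. Probe symbols came from the platform annotation, updated by Entrez identifier: 34885 probes had 1 symbol, 18 several and 10378 none. A gene was represented by its brightest tested probe. A mean was fitted for each of 4 groups and contrasts were tested with limma (4 residual and 3.05 prior degrees of freedom), two-sided, with Benjamini-Hochberg adjustment over all probes; the model was also tested on simulated data. Arrays have no read depth, and their number limits the precision. Figures were made with matplotlib 3.10.9.

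Samples of the same number deviated together from their group means (r = 0.100 for females, 0.269 for males; the series text speaks of pairs of mice), so the number was also fitted as a replicate block. Genes named by rule were all members, pathway genes past the threshold or the 2 with the smallest genotype p per list, and the 5 most like each member. Sesn3, Irs2, Sesn1 and single cell-type markers were named outside this rule. The members and lists were chosen with earlier results of these data known.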

Additional observations from a re-analysis of the deposited data

Results flagged for a closer look

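The genotype difference of Angpt1 ran in opposite directions in the sexes: both mutant males lay above both wildtype males, and both mutant females lay below both wildtype females. Of all tested probes, 3.38% had this pattern. The male effect minus the female effect was 1.08 on the log2 scale (SE 0.38), with an adjusted p of 0.673 (limma), so this difference did not pass. The gap between an outermost array and its neighbour, relative to the range, singled out no array of either genotype. This held for each tested probe of the 5 genes and for the 5 ratios. With only 4 arrays and both sexes together, the check can find only a very wide gap. It therefore cannot show that no single array carried a result. Over both sexes, Tek differed by -0.64, but by -0.31 without mutant male 2 and by -0.97 without mutant male 4. Ptprb differed by -0.46, but by -0.15 and -0.77 without these arrays.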

How the results depend on the processing

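No member passed between genotypes under any alternative run, and the direction held for Tie1 (-1.004 to -0.60, adjusted p from 0.129), Angpt2 (-0.56 to -0.21) and Angpt1 (0.025 to 0.33). With the endothelial mean as a covariate, Tek turned to 0.033 and Ptprb to 0.069, and the ratio of Tie1 to Tek turned to 0.047 in the authors' processed values; the cause was not tested. Without single arrays, Angpt2 in males ran from -0.55 (without mutant male 4) to 0.035 (without mutant male 2), the interaction of Tek from -1.29 to 0.025 and that of Ptprb from -1.18 to 0.063 (without the same 2 arrays), and Tek in females from -0.66 (without mutant female 3) to 0.014 (without mutant female 1). The 9 probes past the threshold between genotypes became 0 in the authors' values, 1 without a filter, 3 without a sex term, 0 with the endothelial covariate and 0 to 1 without single arrays. With the replicate block the count was 0, Tie1 stayed at -0.86 (SE 0.13, adjusted p = 0.299, limma) and no member's call changed. The other 4 ratios were recomputed under alternatives chosen after seeing the data, and none turned. None passed either, which a single ratio cannot do with so few arrays and this adjustment. For the ratio of Tie1 to Tek, the random block and the covariate were not run. The 2 undetected Angpt1 probes limit that gene to 1 probe.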
